A study of Mus musculus with 4 samples.

Results

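Interferon response genes were examined in liver of mice with a synonymous Foxo1 mutation and of wild type mice, as a list of 30 gene symbols. All 30 were found by symbol among the 37315 Ensembl genes that were counted, and all 30 passed the filter on low counts, after which 14657 genes were tested. The data are RNA sequencing counts from whole liver of C57BL/6 mice aged 23 weeks, with 2 wild type and 2 mutant libraries. A synonymous mutation exchanges a codon without altering the protein. Which codon was exchanged, how the mice were made, their sex and how they were fed are not stated in the sources used here, and the labels name no agent or treatment in either group. The labels also do not say whether the 2 libraries of a group are from separate animals, so p-values rest on the spread between these libraries, and that spread may be technical. Levels are normalised CPM, counts scaled to a common library size with the TMM factor of edgeR, and a positive log2 fold change means a higher level in mutant liver.

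Interferons are cytokines that put cells into an antiviral state. Type I interferons bind the Ifnar1 and Ifnar2 receptor and, through the kinases Jak1 and Tyk2, bring STAT2 and IRF9 to the interferon-stimulated response element (ISRE) of target promoters, whereas interferon gamma acts at gamma-activated sites (GAS). The induced genes degrade or sequester viral RNA, hold back virus budding, attack the vacuoles of intracellular parasites and feed peptides to MHC class I. In liver, hepatocytes as well as Kupffer cells, the resident macrophages, respond to interferon.

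At an adjusted p below 0.05, 0 of the 30 genes rose and 0 fell (edgeR quasi-likelihood test, Benjamini-Hochberg adjustment over all genes tested). Of all genes tested 0.341% passed, 0.28% higher and 0.0614% lower in mutant liver. The lowest adjusted p among the 30 was 0.254, for Irf7. DESeq2 and limma-voom also called 0 of the 30, where they called 0.764% and 0.0478% of all genes. With edgeR and no filter on low counts 2 members passed, Ifi27l2a (adjusted p = 0.0129) and Irf7 (adjusted p = 0.0384), where 1.12% of the 23104 genes then tested passed. At an unadjusted p below 0.05 edgeR gave 6 of the 30, or 20%, against 6.19% of all genes tested. Of these, Irf7, Ifi27l2a, Oas1a, Oas2 and Oasl2 were higher in mutant liver (16.7% of members, against 3.97% of all genes) and Rsad2 was lower (3.33%, against 2.22%). At the same unadjusted threshold DESeq2 and limma-voom each gave 5 members, where they gave 5.01% and 5.99% of all genes. The member that both left out was Rsad2, the only lower one, with an unadjusted p of 0.0549 in DESeq2 and 0.0656 in limma-voom. Of the log2 fold changes 23 were positive and 7 negative, and their median was 0.09, beside a median of −0.0013 and 49.7% positive over all genes tested. The fold changes were small, from 0.771-fold for Rsad2 to 1.80-fold for Ifi27l2a.

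The total counts were 80975687 and 73551737 in wild type and 95908652 and 83594287 in mutant libraries, and the lowest count of any member in any library was 123. The hepatocyte markers fixed for this comparison were measured in all 4 libraries, 10 of 10, and 7 of them had a positive log2 fold change. Alb was at 71491 and 80682 CPM in the wild type pair, against 67920 and 64771 CPM in the mutant pair. Foxo1 itself was at 44.0 and 54.8 CPM in the 2 wild type libraries, then 33.6 and 53.4 CPM in the 2 mutant ones, so the groups overlapped. Of 12 Kupffer cell and macrophage markers, all 12 were higher in both mutant libraries than in both wild type libraries, against 17% of all genes tested. Past the adjusted threshold in edgeR 6 rose (Clec4f, Cd5l, Timd4, Csf1r, C1qb and Lyz2), where 0.28% of all genes did. The summed level of the 12 markers was 342 and 363 CPM in the wild type pair, against 517 and 597 CPM in the mutant pair. In bulk liver, more cells of a type and more RNA per cell cannot be told apart. T and NK lymphocyte markers summed to 2.87 and 5.44 CPM in the 2 wild type libraries, then 5.77 and 4.42 CPM in the 2 mutant ones, plasmacytoid dendritic cell markers to 13.04 and 12.8 CPM and 14.2 and 12.6 CPM, of which Tcf4 made up most, and neutrophil markers to 2.68 and 3.42 CPM and 4.11 and 3.82 CPM. Of these 3 lists 7 of 8, 3 of 4 and 3 of 3 tested markers had a positive log2 fold change. Other lists leaned the other way. Positive values were found for 2 of 6 B lymphocyte, 2 of 7 sinusoidal endothelial cell, 2 of 7 stellate cell and 0 of 5 cholangiocyte markers. Of the 5 erythroid and blood markers all 5 were positive, with a median of 0.45. Between the groups 4 did not overlap and were higher in mutant liver, against 17% of all genes tested. The beta globin gene Hbb-bt alone rose past the adjusted threshold in edgeR, where 0.28% of all genes did. The summed level of the 5 markers was 238 and 266 CPM in the wild type pair, against 295 and 334 CPM in the mutant pair. The part of these cells in the levels of the interferon response genes was not tested.

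Promoter sequence did not itself enter the choice of the genes. They were listed as interferon response genes, and the ISRE is the site through which the type I signal reads them out. A raised share of these letters could thus be foreseen from the list and is not a result of these libraries. RefSeq promoter windows (build GRCm38.p6, 250 bases before to 50 after a start site) were at hand for 23 of the 30 genes. The letters GAAANNGAA, the repeat at the core of the ISRE, were found on either strand in 13 of these 23 (56.5%), against 9.76% of the 27025 genes with a window. The letters TTCNNNGAA of the GAS, which read the same on both strands, were in 6 of 23 (26.1%), against 9.55%. Matches of these motifs can overlap each other, a gene with more than 1 window was counted where any window matched, and a match is a description of letters, not a measured site. Of the members higher at an edgeR unadjusted p below 0.05, Oas1a had ISRE letters and Irf7 and Oasl2 had none. Oas2 and Ifi27l2a had no window. The windows below were picked among genes with ISRE letters: Isg15, Ifit1, Ifit3 and Rsad2, and 2 GTPases for comparison. Of these genes only Rsad2 did not overlap between the groups. Each is printed 5′ to 3′ on the strand of its gene, with 15 bases on either side. The ISRE letters, or their reverse complement, are in capitals.
Isg15, chr4:156200861-156200911, minus strand: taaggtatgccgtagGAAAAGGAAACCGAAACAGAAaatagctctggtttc
Ifit1, chr19:34640765-34640828, plus strand: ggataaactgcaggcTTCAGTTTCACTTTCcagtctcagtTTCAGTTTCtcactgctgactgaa
Ifit3, chr19:34583359-34583450, plus strand: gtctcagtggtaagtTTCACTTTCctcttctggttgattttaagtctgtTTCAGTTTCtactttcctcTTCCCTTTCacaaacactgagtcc
Rsad2, chr12:26456548-26456586, minus strand: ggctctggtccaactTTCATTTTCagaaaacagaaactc
Gbp2, chr3:142620590-142620628, plus strand: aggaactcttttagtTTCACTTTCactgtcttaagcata
Igtp, chr11:58199507-58199545, plus strand: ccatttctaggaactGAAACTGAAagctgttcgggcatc

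Isg15, Ifit1 and Ifit3 each held 3 matches, which in Isg15 overlap and begin 78 to 66 bases before the start. In Ifit1 they begin 109 to 84 bases before it, and those at 109 and 103 bases overlap. In Ifit3 they begin 155 to 102 bases before the start. Rsad2, Gbp2 and Igtp held 1 match each, at 119, 58 and 34 bases. Among the 13 genes with ISRE letters in the window, 7 were higher and 6 lower in mutant liver by their log2 fold change, whose median was 0.0014 and a range from −0.38 (Rsad2) to 0.50 (Oas1a). Among the 10 with a window but without these letters, 9 were positive and 1 negative, with a median of 0.12 and a range from −0.04 (Oasl1) to 0.46 (Oasl2). These are counts over genes chosen by name, with no test of the difference.

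Levels between genes can be compared per kilobase of merged exon, a scale that understates genes whose annotation includes retained introns. On it the members spanned from 0.399 CPM per kb for Ifi44 to 74.4 CPM per kb for Bst2, the cell surface tether that holds budding virions. Iigp1, an immunity-related GTPase that attacks parasite vacuoles, was next at 54.4 CPM per kb, and Stat2 followed at 12.02 CPM per kb. Igtp, Irf7 and Ifi27l2a were between 6.68 and 9.75 CPM per kb, and the remaining 24 were below 6 CPM per kb. Iigp1 alone gave 321 and 303 of the summed 717 and 731 CPM of the 30 genes in wild type libraries and 317 and 327 of 758 and 751 CPM in mutant libraries. The plot of levels by library is on the scale not divided by length, where the order of the genes differs.

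**Figure D1:**
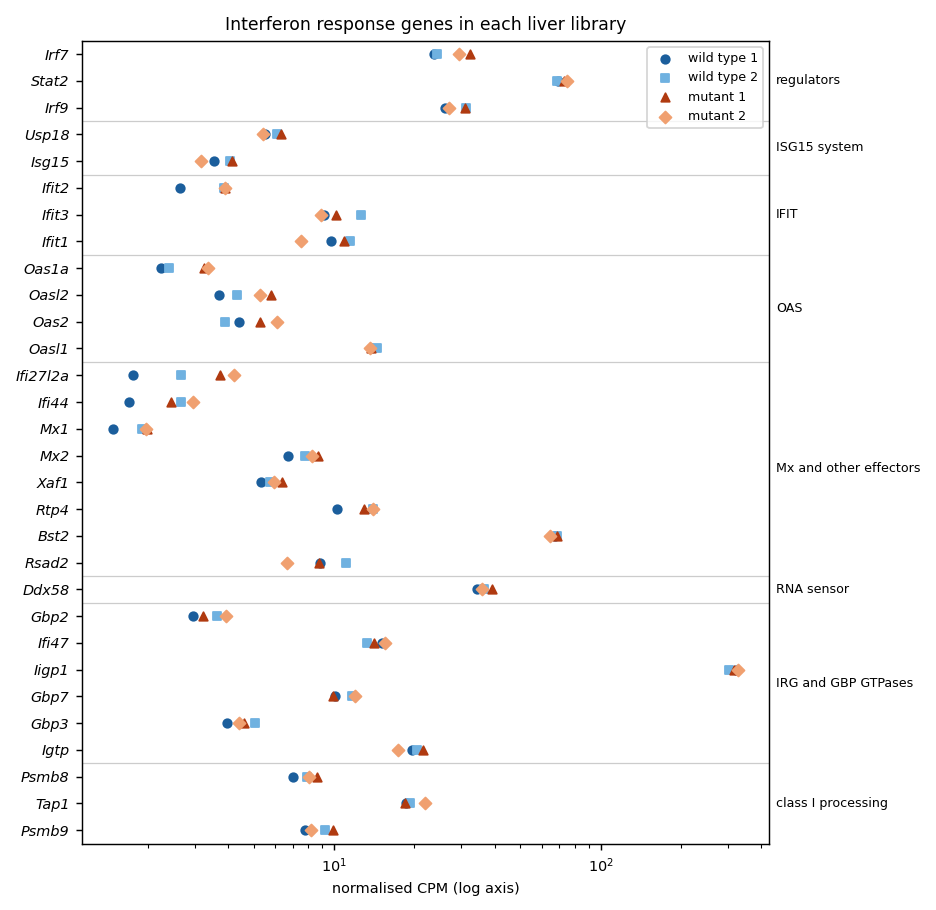
Normalised CPM of the 30 interferon response genes (log axis) in each of the 4 libraries, 1 symbol per library, with genes grouped by role. Levels ran from 1.48 CPM (Mx1, wild type replicate 1) to 327 CPM (Iigp1, mutant replicate 2), and the symbols of the groups separate in 12 rows, among them Irf7, Oas1a, Oas2, Oasl2 and Ifi27l2a, and intermix in the others.

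Of the 3 regulators, Irf7, the factor that amplifies type I interferon production, differed most between the groups. Irf7 (ENSMUSG00000025498, mm10 chromosome 7, 141262706 to 141266481, minus strand) was at 23.7 and 24.3 CPM in the wild type pair, against 32.3 and 29.5 CPM in the mutant pair. Both mutant libraries were above both wild type libraries. The log2 fold change was 0.36 (SE 0.098, 95% confidence interval 0.15 to 0.58), with an edgeR unadjusted p of 0.00272 and an adjusted p of 0.254. It ranged from 0.30 to 0.43 when any 1 library was left out. Stat2, the STAT protein specific to type I and type III signalling, was at 69.3 and 68.3 CPM in the 2 wild type libraries, then 72.5 and 74.8 CPM in the 2 mutant ones, a log2 fold change of 0.098 with an interval of −0.09 to 0.29. Irf9, the DNA-binding subunit of the complex with STAT2, was at 26.1 and 31.3 CPM in the wild type pair, against 30.9 and 26.9 CPM in the mutant pair. For Irf9 the groups overlapped, and the spread between replicates was larger than the group difference. Exons of Irf7 overlap the opposite-strand gene Phrf1 over 45 bases and those of Irf9 overlap Rnf31 on the same strand over 123 bases.

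The OAS family makes or is related to enzymes that make oligoadenylates, which switch on RNase L to degrade RNA. In this family 3 of 4 members were higher in both mutant libraries than in both wild type libraries, against 17% of all genes tested. Oas1a was at 2.24 and 2.41 CPM in the 2 wild type libraries, then 3.23 and 3.35 CPM in the 2 mutant ones (log2 fold change 0.50, SE 0.20, edgeR unadjusted p = 0.0278, adjusted p = 0.677). Oas2 was at 4.38 and 3.902 CPM in the wild type pair, against 5.27 and 6.08 CPM in the mutant pair (0.45, SE 0.17, edgeR unadjusted p = 0.0196, adjusted p = 0.619). Oasl2, which encodes an OAS-like protein with ubiquitin-like domains, was at 3.701 and 4.32 CPM in the 2 wild type libraries, then 5.78 and 5.26 CPM in the 2 mutant ones (0.46, SE 0.17, edgeR unadjusted p = 0.0187, adjusted p = 0.609). For these 3 genes the difference of the group means exceeded the gap between the replicates in either group. Oasl1, a related protein known to restrain translation of Irf7, had a value close to 0, with 13.7 and 14.4 CPM in the wild type pair, against 13.7 and 13.6 CPM in the mutant pair (log2 fold change −0.04, interval −0.28 to 0.20). Oas1a shares 40.9% of its distinct 100-base transcript stretches with the neighbouring paralog Oas1g, so the split of their reads is uncertain. Oas1g was at 1.11 and 1.26 CPM in the 2 wild type libraries, then 1.54 and 1.53 CPM in the 2 mutant ones.

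The 8 members grouped as Mx proteins and other antiviral effectors held the highest and the lowest fold change of all 30. Ifi27l2a, a small interferon-induced membrane protein (ENSMUSG00000079017, mm10 chromosome 12, 103442167 to 103443680, minus strand), was at 1.76 and 2.67 CPM in the wild type pair, against 3.74 and 4.21 CPM in the mutant pair. The groups did not overlap, and wild type replicate 1 was the lowest of the 4. The log2 fold change was 0.85 (SE 0.23, interval 0.35 to 1.34, edgeR unadjusted p = 0.0030, adjusted p = 0.268), and it was 0.57 without wild type replicate 1 and 1.17 without wild type replicate 2. Rsad2, or viperin, an enzyme that makes a chain-terminating ribonucleotide, was at 8.86 and 11.1 CPM in the 2 wild type libraries, then 8.74 and 6.63 CPM in the 2 mutant ones. Wild type replicate 1 and mutant replicate 1 differed by 0.123 CPM, so the groups were separate by a narrow margin. Its log2 fold change was −0.38 (SE 0.17, interval −0.74 to −0.010, edgeR unadjusted p = 0.0448, adjusted p = 0.792), and it ranged from −0.59 when mutant replicate 1 was left out to −0.19 when mutant replicate 2 was.

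Mx2, a dynamin-like GTPase, was at 6.703 and 7.78 CPM in the wild type pair, against 8.69 and 8.28 CPM in the mutant pair, and Mx1 at 1.48 and 1.896 CPM and 1.99 and 1.97 CPM. Both genes are known to carry disabling mutations in C57BL/6 mice, so these are levels of transcripts that give no working protein. Xaf1, which encodes a protein that binds the apoptosis inhibitor XIAP, was also separate by group, with 5.32 and 5.71 CPM in the 2 wild type libraries, then 6.39 and 5.92 CPM in the 2 mutant ones. The log2 fold changes of Mx2, Mx1 and Xaf1 were 0.23, 0.23 and 0.16, and each interval included 0. Ifi44 (1.70 and 2.67 CPM, then 2.45 and 2.95 CPM) and Rtp4 (10.3 and 13.9 CPM, then 12.9 and 13.9 CPM) overlapped between wild type and mutant and were lowest in wild type replicate 1. Bst2 stayed within 64.8 to 68.3 CPM in all 4 libraries (log2 fold change −0.03, interval −0.22 to 0.16).

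Isg15, Usp18, Ifit1 and Ifit3 overlapped between the groups. Isg15, a ubiquitin-like modifier, was at 3.53 and 4.07 CPM in the wild type pair, against 4.15 and 3.17 CPM in the mutant pair (log2 fold change −0.05, interval −0.48 to 0.38). Usp18, the protease that removes Isg15 and damps receptor signalling, was at 5.498 and 6.12 CPM in the 2 wild type libraries, then 6.33 and 5.403 CPM in the 2 mutant ones. In both genes the highest value was that of mutant replicate 1 and the lowest that of mutant replicate 2. The IFIT proteins bind viral RNA ends and block its translation. Ifit1 was at 9.74 and 11.5 CPM in the wild type pair, against 10.8 and 7.47 CPM in the mutant pair (log2 fold change −0.21, interval −0.61 to 0.19). Ifit3 was at 9.11 and 12.6 CPM in the 2 wild type libraries, then 10.2 and 8.92 CPM in the 2 mutant ones (−0.18, interval −0.54 to 0.17). Both peaked in wild type replicate 2 and were lowest in mutant replicate 2, as was Rsad2. Ifit2 differed from them, with 2.63 CPM in wild type replicate 1 and 3.85, 3.897 and 3.885 CPM in the other 3 libraries, so that its groups were separate by a narrow margin. Ifit3 shares 31.7% of its 100-base stretches with the paralog Ifit3b, which was at 2.69 and 3.35 CPM in the wild type pair, against 2.69 and 2.03 CPM in the mutant pair. Ddx58, which encodes the RNA sensor RIG-I, was at 34.3 and 36.5 CPM in the 2 wild type libraries, then 39.05 and 35.9 CPM in the 2 mutant ones.

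The 6 interferon-inducible GTPases, which are most responsive to interferon gamma, had log2 fold changes between −0.04 and 0.12 and overlapped between the groups in all 6 cases. Iigp1 was at 321 and 303 CPM in the wild type pair, against 317 and 327 CPM in the mutant pair (log2 fold change 0.045, interval −0.17 to 0.26). Ifi47 was at 15.1 and 13.3 CPM in the 2 wild type libraries, then 14.1 and 15.5 CPM in the 2 mutant ones, and Igtp at 19.6 and 20.4 CPM and 21.6 and 17.3 CPM. The guanylate-binding proteins, which gather on pathogen membranes, had log2 fold changes of 0.12 (Gbp2), 0.011 (Gbp7) and 0.0014 (Gbp3). Gbp7 was at 10.04 and 11.7 CPM in the wild type pair, against 9.87 and 12.001 CPM in the mutant pair, so that replicate 2 was the higher one in each group. Gbp2 covered 2.94 to 3.92 CPM and Gbp3 3.95 to 5.04 CPM over the 4 libraries. Igtp overlaps Irgm2 on the same strand over 162 bases, and Gbp7 overlaps Gm43802 over 637 bases.

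Psmb8 and Psmb9, catalytic subunits of the immunoproteasome, and Tap1, a subunit of the peptide transporter, serve class I antigen presentation. Psmb8 was at 6.99 and 7.87 CPM in the 2 wild type libraries, then 8.58 and 8.04 CPM in the 2 mutant ones, which did not overlap, with a log2 fold change of 0.16 (interval −0.14 to 0.47). Psmb9 was at 7.78 and 9.26 CPM in the wild type pair, against 9.86 and 8.15 CPM in the mutant pair, and Tap1 at 18.5 and 19.3 CPM and 18.5 and 21.8 CPM. Both overlapped between the groups. Psmb9 and Tap1 lie head to head and their exons overlap over 212 bases, and exons of Psmb8 overlap the opposite-strand gene Gm20496 over 498 bases, where an unstranded library cannot tell the genes apart.

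**Figure D2:**
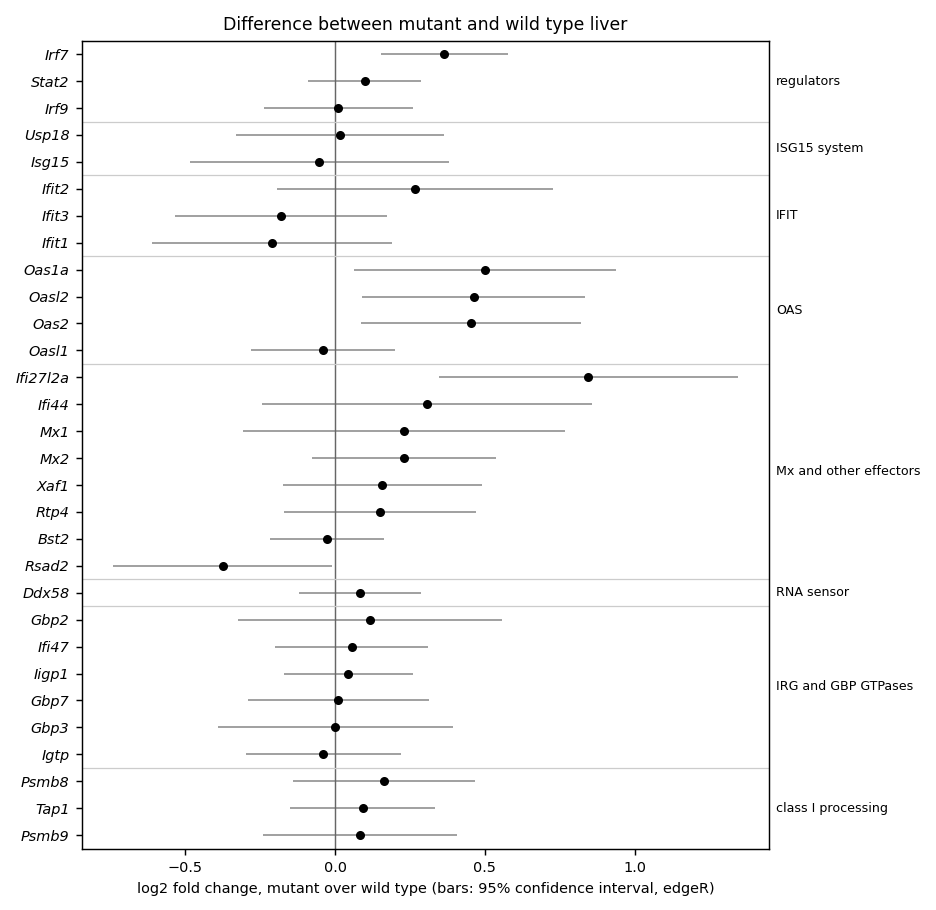
Log2 fold change, mutant over wild type, of each interferon response gene with its 95% confidence interval from edgeR, grouped by role and, within a role, in order of size. The interval lies above 0 for Irf7, Oas1a, Oas2, Oasl2 and Ifi27l2a and below 0 for Rsad2, before any adjustment for the number of genes tested.

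Across the list, 12 of 30 members (40%) did not overlap between the groups, against 34.1% of all genes tested. Of these, 11 were higher in mutant liver (36.7%, against 17% of all genes) and 1 was lower (3.33%, against 17%). The difference of group means exceeded the gap between replicates in both groups for 9 members (30%), against 22.9% of all genes tested. The 9 were Irf7, Stat2, Oas1a, Oas2, Oasl2, Ifi27l2a, Mx2, Xaf1 and Rsad2.

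Compared library by library, wild type replicate 1 stood lowest. It had the lowest value of 16 of the 30 genes and the highest of 0, while among all genes without a zero count it was the lowest in 24.8% and the highest in 24.03%. Wild type replicate 2 was above it for 26 of 30 members, with a median difference of 0.21 on the log2 scale, beside 51.1% of all genes and a median of 0.0054. The 4 members that were not higher in wild type replicate 2 were Stat2, Oas2, Ifi47 and Iigp1. The median difference between the 2 wild type libraries was thus larger than the median difference between the groups, 0.09. That between the mutant libraries was smaller in size. Mutant replicate 2 was above mutant replicate 1 for 11 of 30 members, with a median of −0.065, beside 50.2% of all genes and a median of 0.0011. These differences are between single libraries, while the group value rests on 2 libraries a side. Mutant replicate 1 held the highest value of 13 members and mutant replicate 2 that of 11, but mutant replicate 2 also held the lowest of 8, among them Isg15, Usp18, Ifit1, Ifit3 and Rsad2.

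Against wild type replicate 1, 25 members were higher in mutant replicate 1 and 22 in mutant replicate 2, with medians of 0.22 and 0.15. Against wild type replicate 2 the numbers were 19 and 18, with medians of 0.056 and 0.036. Without wild type replicate 1 the median log2 fold change of the list was 0.016, and without wild type replicate 2 it was 0.17. Of the 5 members that were higher at an unadjusted p below 0.05, all 5 kept a positive log2 fold change whichever library was left out, with a range of 0.30 to 1.17. By role, the OAS family was the one whose mean difference from the gene mean separated the groups most widely, at −0.20 and −0.14 in wild type and 0.16 and 0.19 in mutant libraries. The IFIT family was highest in wild type replicate 2, at 0.23, and lowest in wild type replicate 1, at −0.19.

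**Figure D3:**
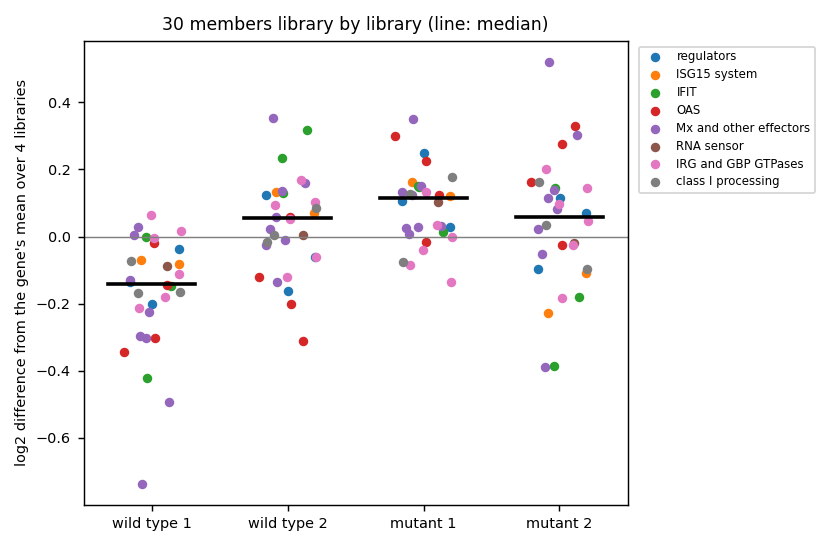
Log2 difference of each of the 30 members from its own mean over the 4 libraries, 1 point per gene coloured by role, with the median of the members as a black line. The medians were −0.14 in wild type replicate 1, 0.055 in wild type replicate 2, 0.11 in mutant replicate 1 and 0.058 in mutant replicate 2.

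Upstream of these genes, interferon transcripts were near or below detection. Of 12 ligand genes listed 11 were in the files, 8 of them had 0 counts in all 4 libraries and 0 were tested. Their summed level reached at most 0.0553 CPM, where 3 counts correspond to 0.0313 to 0.0408 CPM, so no difference in ligand transcripts was detectable at this depth. Of the 5 receptor chains tested, 4 were positive and 1 negative in log2 fold change, between −0.016 and 0.10, and 0 passed the adjusted threshold. Ifnar1 was at 37.2 and 29.9 CPM in the 2 wild type libraries, then 32.6 and 37.8 CPM in the 2 mutant ones. Ifnar2 was at 28.3 and 30.01 CPM in the wild type pair, against 31.3 and 31.4 CPM in the mutant pair. Ifngr1, the ligand-binding chain for interferon gamma, was at 15.4 and 14.5 CPM in the 2 wild type libraries, then 15.8 and 15.9 CPM in the 2 mutant ones.

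Among 10 transducers and IRF factors outside the members, 6 were positive and 4 negative, with a median of 0.075. Jak1, the kinase shared by the interferon receptors, was at 114 CPM in both wild type libraries and at 119 and 116 CPM in mutant libraries, and Irf3, the factor activated by RNA and DNA sensors, at 40.2 and 45.8 CPM and 42.1 and 40.8 CPM. Stat3 was at 98.2 and 108 CPM in the wild type pair, against 101 and 128 CPM in the mutant pair. The groups overlapped for Irf3 and Stat3. Of 16 genes of nucleic acid sensing 14 were positive and 2 negative (median 0.092), and the adaptor Mavs, the highest per kilobase, was at 80.5 and 76.6 CPM in the 2 wild type libraries, then 76.4 and 83.02 CPM in the 2 mutant ones. Pathway inhibitors had 4 positive and 3 negative values of 7 tested, with a median of 0.019. Other class I antigen presentation genes had 10 positive and 4 negative of 14 (median 0.024), and their most abundant transcript, B2m, was at 1227 and 1512 CPM in the wild type pair, against 1490 and 1515 CPM in the mutant pair. Other interferon-induced genes had 20 positive and 10 negative of 30 (median 0.058), and other GTPases of the same families 9 positive of 9 (median 0.15). Ifitm3, which blocks virus entry, was at 157 and 187 CPM in the 2 wild type libraries, then 162 and 177 CPM in the 2 mutant ones.

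In all 91 pathway genes tested outside the 30 members, 0 passed the adjusted threshold in edgeR, and 10 had an unadjusted p below 0.05, all 10 higher in mutant liver, against 3.97% of all genes tested. Named after their values were seen, they were Tlr7, Tlr9, Irf5, Ifi203, Ifi204, Slfn2, Sp100, Oas3, Gbp8 and Socs3. The endosomal RNA receptor Tlr7 was at 1.63 and 1.85 CPM in the wild type pair, against 2.77 and 3.75 CPM in the mutant pair (log2 fold change 0.91, SE 0.23, edgeR adjusted p = 0.209). Irf5, a factor that acts below Toll-like receptors, was at 15.6 and 13.1 CPM in the 2 wild type libraries, then 16.9 and 22.1 CPM in the 2 mutant ones (0.44, SE 0.15, edgeR adjusted p = 0.528). Oas3 was at 1.18 and 0.927 CPM in the wild type pair, against 2.24 and 1.94 CPM in the mutant pair (0.98, SE 0.27, edgeR adjusted p = 0.273). Together with Oas1a, Oas2, Oasl2 and Oas1g it was higher in both mutant libraries than in both wild type libraries, as were 17% of all genes tested. Oas1b and Oasl1 overlapped. Oas1a and Oas1g share transcript sequence, so their values are not independent. The macrophage markers, with a median log2 fold change of 0.65, were higher in the same 2 libraries as these genes, and their part in these differences was not tested.

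**Figure D4:**
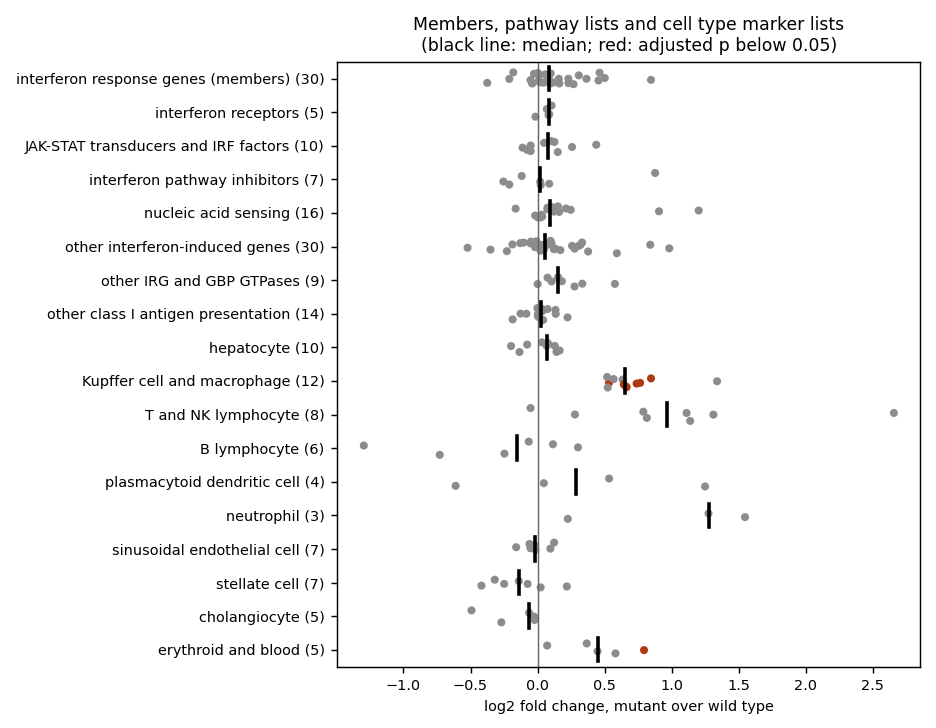
Log2 fold change, mutant over wild type, of the tested genes of each list, with the number of genes in parentheses, the list median as a black line and genes past an adjusted p below 0.05 in red. The members have a median of 0.09 and no red point, while the Kupffer cell and macrophage markers have a median of 0.65 and 6 red points.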

How the data were processed

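The authors deposited raw counts of reads for each Ensembl gene in separate tables, neither normalised nor pooled. Per the submitters' processing notes, TopHat2 2.1.1, HTSeq 0.6.0 and build mm10 were used; for the annotation release and for the counting and strand settings the sources used here give nothing. Per the labels' protocols the libraries were poly(A)-selected TruSeq v2, a kit that does not mark strand. Symbols, merged exon lengths, overlaps and shared 100-base stretches came from GENCODE M21 on the matching build. A symbol was found for 35449 of the 37315 identifiers.

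Counts were tested in R 4.3.3 with edgeR 4.0.16: filterByExpr with a minimum count of 10, TMM, and the robust quasi-likelihood test with group as its term, with Benjamini-Hochberg adjustment over 14657 genes. An SE is the size of the log2 fold change over the root of F. The test was checked on simulated data. Alternatives were RLE and upper-quartile scaling, 2 other filters, DESeq2 1.42.0, limma-voom (limma 3.58.1), edgeR without its robust option, a block on the replicate number, an adjusted p of 0.1 and each library left out. Each 95% interval is of an edgeR log2 fold change, from that SE and the degrees of freedom of the fit. It thus includes the spread between libraries.

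All 30 members are named. In each other pathway list any gene past the threshold and up to 3 of highest level per kilobase were eligible, and in each marker list any gene past the threshold and up to 2 of highest level; not all of these are printed. The members and the lists were chosen with earlier results of these data known.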

Additional observations from a re-analysis of the deposited data

How the results depend on the processing

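In the 8 alternatives that used all 4 libraries, the log2 fold changes of the 30 members kept their direction in 240 of 240 cases and their side of the threshold in 238, the exceptions being Ifi27l2a and Irf7 with no filter on low counts, where 2 members passed. The number of genes past the threshold among all tested was 50 and became 258 with no filter (197 higher, 61 lower), 24 with 1 CPM in 2 libraries, 112 with DESeq2, 7 with limma-voom and 8 without robust estimation. The labels do not say whether libraries of the same replicate number were paired. Over 14626 genes the difference of replicate 1 and 2 in wild type had a correlation of −0.015 with that in mutant libraries. That value cannot settle whether they were paired. With the replicate number as a block 111 genes and 0 members passed. Without 1 library the count of genes ranged from 3 to 17 (13 and 17 when wild type replicate 1 or 2 was left out, 3 and 15 when mutant replicate 1 or 2 was), the count of members stayed at 0, and the members' median ranged from 0.016 to 0.17.

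In 22 of the 120 fits of a member without 1 library the direction turned, in 14 genes, all with an unadjusted p above 0.05 with all libraries. Their log2 fold changes over the 4 such fits ranged from −0.052 to 0.39 for Rtp4, −0.035 to 0.28 for Gbp2, −0.036 to 0.21 for Tap1, −0.062 to 0.21 for Psmb9, −0.034 to 0.15 for Ifi47, −0.10 to 0.12 for Usp18, −0.14 to 0.15 for Gbp7, −0.11 to 0.15 for Irf9, −0.16 to 0.18 for Gbp3, −0.066 to 0.0083 for Bst2, −0.21 to 0.11 for Igtp, −0.26 to 0.13 for Isg15, −0.40 to 0.068 for Ifit3 and −0.51 to 0.029 for Ifit1. Such a fit takes the spread of the remaining pair for the single library as well. With 2 libraries a group the 95% interval of a member had a width of 0.376 (Stat2) to 1.10 (Ifi44) on the log2 scale, which limits the size of difference that could be seen.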

Other observations

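Outside the 30 members, too, wild type replicate 1 was mostly below wild type replicate 2. Among other interferon-induced genes 24 of 30 were higher in wild type replicate 2, with a median log2 difference of 0.16, and among other class I antigen presentation genes 11 of 14, with a median of 0.11. Over all 91 pathway genes tested it was 66, with a median of 0.12. B lymphocyte markers were higher in wild type replicate 2 in 5 of 6 genes, with summed levels of 7.897 and 18.7 CPM in the wild type pair, against 8.297 and 4.91 CPM in the mutant pair, most of which was Ighm. Hepatocyte markers were higher in wild type replicate 2 in 8 of 10, with a median of 0.12. The summed levels of the B lymphocyte and of the hepatocyte markers were lowest in mutant replicate 2, not in wild type replicate 1. Whether these differences are linked was not tested.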
